A study of Mus musculus with 4 samples.

Results

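The type I interferon response genes described here are 39 mouse genes chosen by symbol, namely interferon receptors, signal transducers and induced antiviral genes. All 39 were among the 18276 genes of the expression table, and all 39 passed the filter that left 12357 genes for testing. Expression was measured by RNA sequencing of poly(A) RNA from osteoclast progenitors, the precursors of bone-resorbing cells, sorted from freshly isolated mouse marrow as cells negative for B220, CD3 and Mac-1 and positive for CD115. The 2 Ptip_KO libraries came from Ptip flox/flox Mx-1Cre mice, in which the Ptip gene (symbol Paxip1) is flanked by loxP sites, and the 2 WT libraries from WT Mx-1Cre mice. All mice had the mixed strain background B6;129, and their age is not given in the sources used here.

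Type I interferons bind a receptor made of IFNAR1 and IFNAR2. The kinases JAK1 and TYK2 then phosphorylate transcription factors, among them STAT2, which acts with IRF9 at the interferon-stimulated response element (ISRE) in front of target genes. The induced proteins sense viral RNA, block translation, degrade RNA or hold viruses at membranes, and in marrow the same pathway acts on blood stem cells and restrains osteoclast formation. The Mx-1Cre transgene places Cre recombinase under the interferon-inducible promoter of Mx1, so both groups carry a driver that interferon switches on in many cell types, and deletion is not limited to osteoclast progenitors. Whether and when the mice were given an inducer is not given in the sources used here.

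The libraries held between 67592972 and 77773478 reads, and values are read counts scaled by effective library size (CPM), with 1 read worth 0.0127 to 0.0143 CPM. Paxip1 had 5.10 and 3.73 CPM in the Ptip_KO libraries, against 106 and 103 CPM in the WT libraries. Csf1r, which encodes CD115, had 825 and 782 CPM in Ptip_KO, against 677 and 606 CPM in WT. Of the genes for the excluded antigens, Cd3e was at most 0.190 CPM, while Itgam, which encodes a chain of Mac-1, lay between 35.1 and 42.1 CPM in all 4 libraries. Tnfrsf11a, which encodes the osteoclast receptor RANK, had 7.37 and 6.11 CPM in Ptip_KO, against 8.19 and 4.86 CPM in WT. Xist, the RNA that coats an inactive X, was at 298 CPM in WT replicate 2, against at most 0.0814 CPM in the other libraries. Ddx3y, a gene of the Y chromosome, had 0.101 CPM in that library. It had 69.1 CPM in WT replicate 1, and 89.6 and 82.1 CPM in Ptip_KO. So the 2 WT libraries differ in sex and cannot come from 1 animal. Values without WT replicate 2 are given beside the calls of named interferon genes that its removal changed. No label says that the Ptip_KO replicates are separate animals. The p-values reflect only how much these samples vary, which in Ptip_KO may be technical. In bulk RNA fewer cells of a type cannot be told apart from less RNA per cell.

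Setting Ptip_KO against WT addresses how the interferon program differs once Ptip is deleted. Of the 39 interferon genes, 3 rose in Ptip_KO, namely the RNA sensor gene Ifih1, the translation inhibitor gene Ifit2 and the oligoadenylate synthetase gene Oas1a, each by 1.44 to 1.58 times on the ratio of mean CPM. The antiviral gene Rsad2 fell, to 0.246 of its WT mean. The other 35 did not pass the threshold of an adjusted p under 0.05 (limma on log2(CPM + 1), Benjamini-Hochberg over 12357 genes). Of the 39 genes, 7.69% were called higher and 2.56% lower, which are 3 genes and 1 gene, against 2.43% and 3.86% of all tested genes. At an unadjusted p under 0.05 there were 12 of the 39, 9 higher and 3 lower, against 23.8% of all tested genes (11.2% higher and 12.5% lower). The median log2 fold change was 0.12 over the 39 genes, against 0.0032 over all tested genes. Leaving out 1 library moved that median of the 39 to 0.21 (Ptip_KO replicate 1), 0.05 (Ptip_KO replicate 2), 0.23 (WT replicate 1) or 0.04 (WT replicate 2). A positive value was found in 26 of the 39 (66.7%), against 50.5% of all tested genes. Calls depended on single libraries. Without Ptip_KO replicate 1, limma called 1 of the 39 higher and 0 lower, against 0.914% and 2.74% of all tested genes. At an unadjusted p under 0.05 the counts there were 7 and 2, against 6.19% and 8.55% of all tested genes. Without Ptip_KO replicate 2 it called 0 higher and 2 lower, against 0.995% and 2.86%, and 3 and 3 at an unadjusted p under 0.05, against 6.32% and 8.46%. Leaving out WT replicate 1 gave 7 higher, among them Irf7, Oasl2, Xaf1 and Zbp1, and 2 lower, against 4.73% and 7.36%. Leaving out WT replicate 2 gave 4 higher, among them Mx2, and 2 lower, against 5.66% and 7.45%. The edgeR test on recovered reads called 2 higher and 0 lower, against 1.97% and 3.37% of all tested genes (5.34% in either direction). Its unadjusted counts were 9 and 3, against 12.01% and 13.3%. DESeq2 called 5 higher and 2 lower, against 6.31% and 9.11%.

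**Figure D1:**
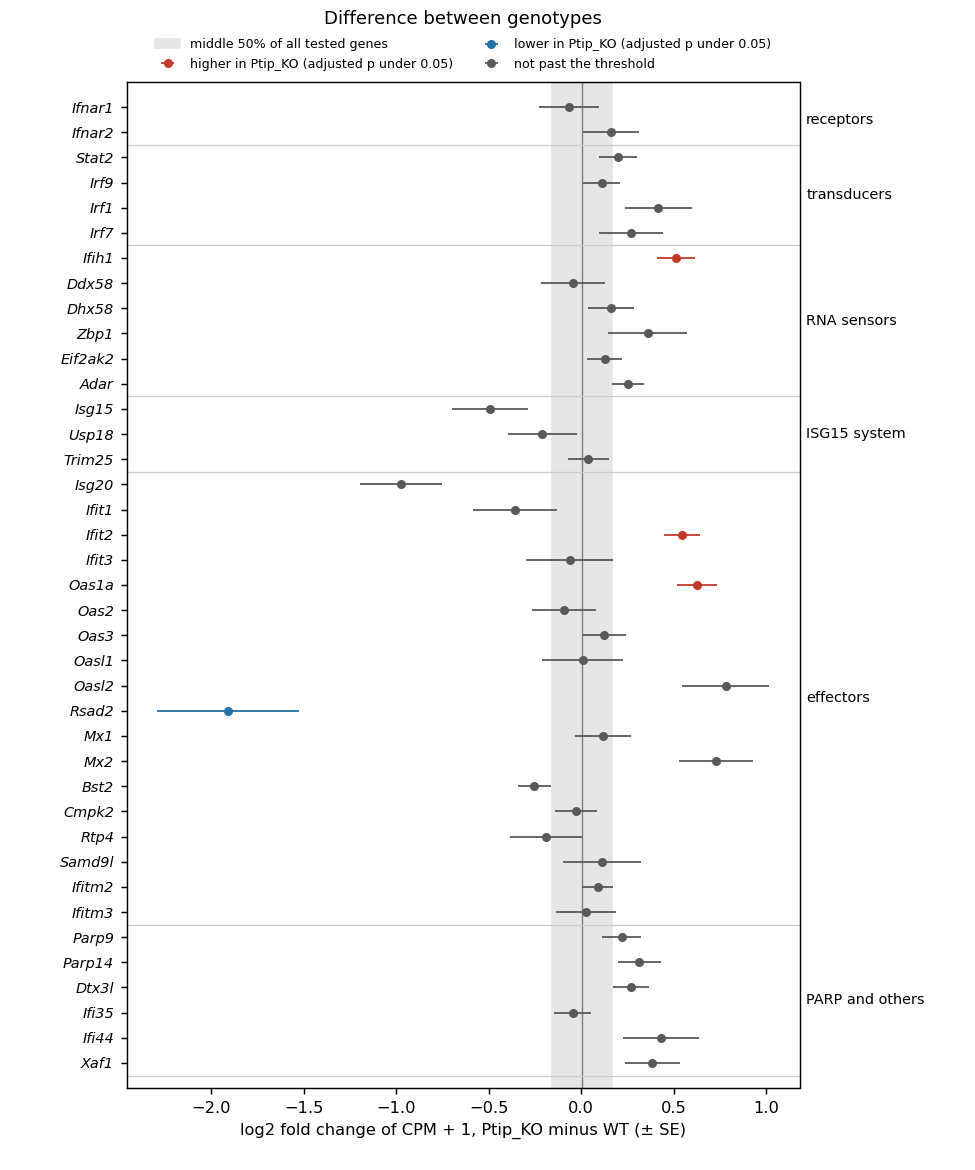
Log2 fold change of CPM + 1, Ptip_KO minus WT, with its standard error for each of the 39 interferon genes, grouped by role (n = 2 libraries per group). Ifih1, Ifit2 and Oas1a are marked as higher and Rsad2 as lower, and the grey band holds the middle 50% of all tested genes, which runs from −0.16 to 0.16.

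Expression of the genes spanned a wide range. Per kilobase of annotated exon, Ifitm3, whose membrane protein blocks virus entry, was the highest, at 312 CPM per kb in Ptip_KO and 310.3 in WT. Its neighbour Ifitm2 followed at 183 CPM per kb in Ptip_KO and 172 in WT, and then Bst2, the tethering factor for budding virions, at 39.6 and 47.3, and Ifnar2 at 51.2 and 46.0. Bst2 and Ifnar2 changed places between the groups. At the low end stood Ifi44, an interferon-induced gene of poorly known function, with 0.312 CPM per kb in Ptip_KO and 0.186 in WT, below Oas2 with 1.001 and 1.07. Of the induced genes, Isg15, Ifit1, Ifit3, Rtp4 and Oas2 were all below 6 CPM in every library. Others were higher, such as Cmpk2 (74.9 to 89.5 CPM), Mx1 (28.7 to 38.5 CPM) and Ifit2 (19.5 to 30.4 CPM). The receptors, Irf9, Adar and the Ifitm genes were near or above 100 CPM.

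**Figure D2:**
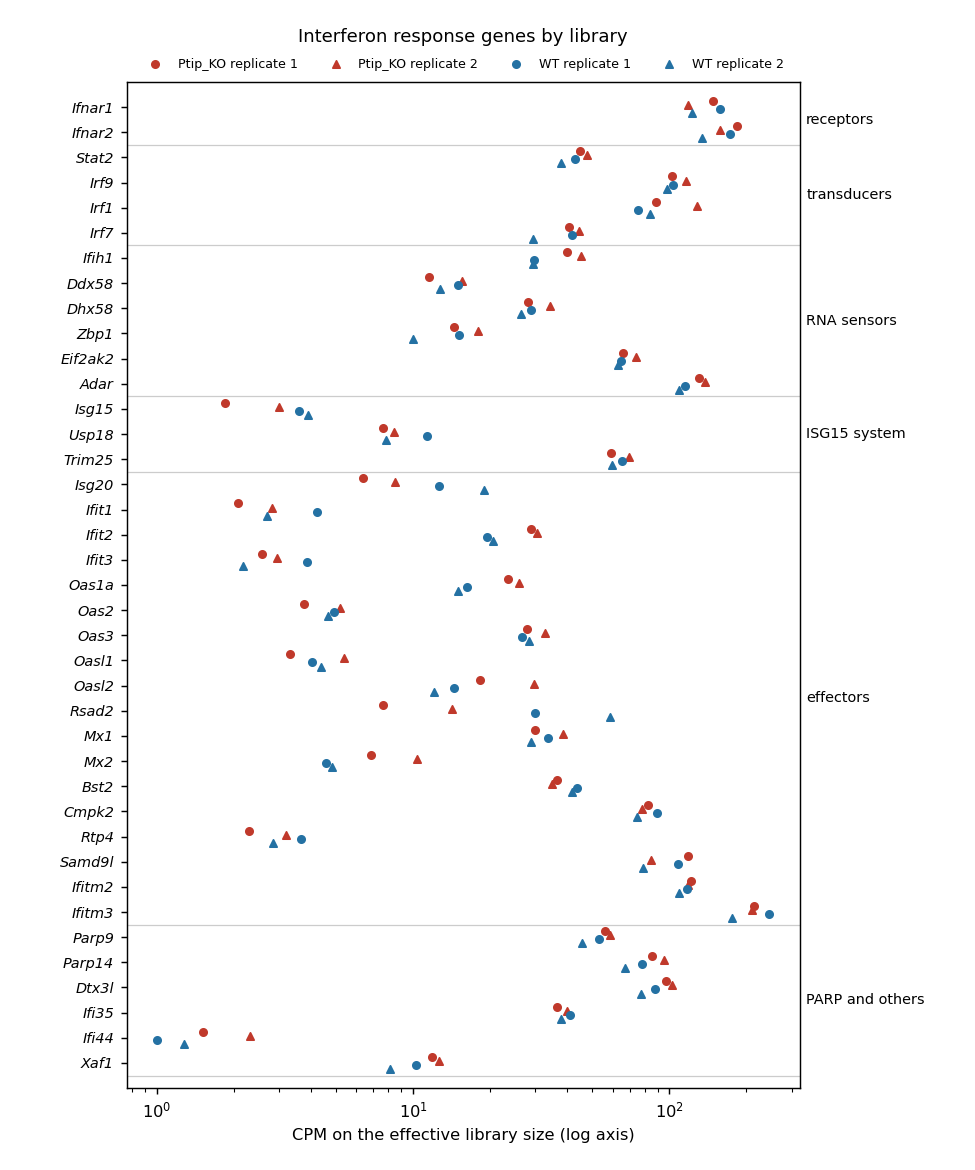
CPM of each of the 39 interferon genes in each of the 4 libraries, on a log axis, red for Ptip_KO and blue for WT, with circles for replicate 1 and triangles for replicate 2. Most genes have red and blue points interleaved or close together, and Rsad2 has both Ptip_KO points (7.65 and 14.2 CPM) left of both WT points (29.97 and 58.9 CPM).

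At the top of the pathway, no receptor or transducer gene passed the test. Limma, edgeR and DESeq2 each called 0 of the 2 receptor and 4 transducer genes, against 6.29%, 5.34% and 15.4% of all tested genes. An unadjusted limma p under 0.05 was found in 0 of them, against 23.8% of all tested genes. With so few genes, a count of 0 is not set apart from those shares. Ifnar1, the signalling chain that binds TYK2, had 148 and 118 CPM in Ptip_KO, against 157 and 123 CPM in WT. Ifnar2, the chain that binds JAK1, had 184 and 158 CPM in Ptip_KO, against 173 and 134 CPM in WT. In both receptor genes replicate 2 was lower than replicate 1 in either group, by more than the groups differed.

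Stat2 had 44.8 and 47.9 CPM in Ptip_KO, against 42.8 and 37.8 CPM in WT, so the groups did not overlap, and its log2 fold change was 0.20 (SE 0.10, limma adjusted p = 0.311). Irf9, its DNA-binding partner, had 102 and 116 CPM in Ptip_KO, against 104 and 97.6 CPM in WT. Irf1, a transcription factor that interferon gamma also induces, had 88.9 and 128 CPM in Ptip_KO, against 75.4 and 84.4 CPM in WT. The spread of Irf1 within Ptip_KO was larger than the gap to the WT libraries, and its log2 fold change of 0.42 had a limma adjusted p of 0.236. Irf7, which amplifies interferon production, had 40.7 and 44.3 CPM in Ptip_KO, against 41.7 and 29.4 CPM in WT, with only WT replicate 2 apart. Its limma adjusted p was 0.408, and 0.0263 without WT replicate 1, when WT replicate 2 was the lone WT library. Exons of Irf7 overlap Phrf1 on the opposite strand and those of Irf9 overlap Rnf31 on the same strand, so these counts may include reads of a neighbour.

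Nor did the receptor kinase genes Jak1 and Tyk2, which are not among the 39 genes, pass the test. Jak1 averaged 210 ± 12.5 CPM in Ptip_KO, against 203 ± 10.3 CPM in WT, and Tyk2 averaged 175 ± 3.82 CPM, against 193 ± 21.9 CPM (SD, n = 2 each). Of 27 tested genes of a list of further interferon signalling genes, 1 fell, beside the 6.29% of all tested genes called in either direction. That gene was Ifngr1, the ligand-binding chain of the interferon gamma receptor, with 171 and 161 CPM in Ptip_KO, against 251 and 251 CPM in WT. Its log2 fold change was −0.59 (SE 0.08, limma adjusted p = 0.0216), past the threshold by edgeR (0.0223) too, and the adjusted p was 0.0785 without Ptip_KO replicate 1 and 0.125 without Ptip_KO replicate 2. Ifngr2, the other chain, had 153 and 139 CPM in Ptip_KO, against 158 and 108 CPM in WT. Genes for the interferons themselves were not analysed here.

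Of the 6 genes for proteins that bind viral or double-stranded nucleic acid, 1 rose, beside 2.43% of all tested genes. Ifih1 encodes MDA5, a sensor of long double-stranded RNA, and lies on chromosome 2 at 62595798 to 62646255 (mm10). It had 39.7 and 45.1 CPM in Ptip_KO, against 29.5 and 29.3 CPM in WT, which put both Ptip_KO libraries above both WT libraries. Its log2 fold change was 0.51 (SE 0.10) at a limma adjusted p of 0.0473, close to the threshold, and edgeR gave 0.0541. Without Ptip_KO replicate 1 or 2 the limma adjusted p of Ifih1 was 0.0992 and 0.259, and it passed when WT replicate 1 or 2 was left out (0.0305 and 0.0292). The related sensor Ddx58, which encodes RIG-I, had 11.5 and 15.5 CPM in Ptip_KO, against 15.0 and 12.7 CPM in WT, and the regulator Dhx58, which encodes LGP2, had 28.1 and 34.1 CPM in Ptip_KO, against 28.8 and 26.3 CPM in WT. In both genes the groups overlapped. Adar, the RNA-editing enzyme, had 130.1 and 138 CPM in Ptip_KO, against 115 and 109 CPM in WT, without overlap, and missed the threshold (log2 fold change 0.25, limma adjusted p = 0.153). Eif2ak2, which encodes the kinase PKR, averaged 69.9 ± 5.72 CPM in Ptip_KO, against 63.8 ± 0.991 CPM in WT (SD, n = 2 each). For Zbp1, a sensor of Z-form nucleic acid, the values were 14.4 and 17.9 CPM in Ptip_KO, against 15.1 and 9.98 CPM in WT.

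None of the 3 genes of the ISG15 system was called by limma, edgeR or DESeq2, or had an unadjusted limma p under 0.05. The shares of all tested genes were 6.29%, 5.34%, 15.4% and 23.8%, so for 3 genes this says little. Isg15, the ubiquitin-like modifier, had 1.85 and 2.997 CPM in Ptip_KO, against 3.595 and 3.91 CPM in WT, or between 141 and 308 reads. Both Ptip_KO libraries were lower, and the log2 fold change of −0.49 had a limma adjusted p of 0.222. Usp18, which removes ISG15 and dampens receptor signalling, averaged 8.03 ± 0.558 CPM in Ptip_KO, against 9.57 ± 2.43 CPM in WT. Trim25, a ubiquitin ligase that activates RIG-I, averaged 64.4 ± 7.13 CPM in Ptip_KO, against 62.6 ± 3.93 CPM in WT (SD, n = 2 each).

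Of the 18 antiviral effector genes, 2 rose and 1 fell, beside 2.43% and 3.86% of all tested genes, and the roles were not compared by a test. Ifit2, whose protein binds RNA and inhibits translation, had 28.9 and 30.4 CPM in Ptip_KO, against 19.5 and 20.5 CPM in WT. The replicates of each group lay much closer to each other than to the other group, and the log2 fold change was 0.55 (SE 0.10, limma adjusted p = 0.0357). Oas1a, one of the enzymes that make oligoadenylates to activate RNase L, had 23.4 and 25.9 CPM in Ptip_KO, against 16.2 and 14.96 CPM in WT. Its log2 fold change was 0.63 (SE 0.11) at a limma adjusted p of 0.0347, and edgeR called both Ifit2 (0.0414) and Oas1a (0.0387). With either Ptip_KO library left out, neither gene passed, at limma adjusted p between 0.0887 and 0.19, although the direction stayed.

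Rsad2, which encodes viperin, an enzyme that makes a chain-terminating nucleotide, was the gene with the largest absolute change of the 39. It had 7.65 and 14.2 CPM in Ptip_KO, against 29.97 and 58.9 CPM in WT. All Ptip_KO values were below all WT values, and within each group replicate 2 was well above replicate 1. The log2 fold change was −1.91 (SE 0.38) at a limma adjusted p of 0.0479. The call was lost by edgeR (0.0738), with a pseudocount of 5 (0.0529), with a robust variance prior (0.107), with scaling to a common sum (0.0838) and without Ptip_KO replicate 1 (0.055), and it was 0.00489 without WT replicate 2. Isg20, an exonuclease gene, ran parallel, with 6.40 and 8.46 CPM in Ptip_KO, against 12.6 and 18.9 CPM in WT. Its groups did not overlap either, and its log2 fold change of −0.98 (SE 0.22) missed the threshold by limma (adjusted p = 0.0632) and passed by DESeq2 (0.00251) and without WT replicate 2 (0.03), among other settings.

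A pair of effectors was high mainly in 1 library. Oasl2, an oligoadenylate synthetase-like gene, had 18.3 and 29.7 CPM in Ptip_KO, against 14.4 and 12.02 CPM in WT. Mx2 had 6.86 and 10.3 CPM in Ptip_KO, against 4.57 and 4.82 CPM in WT. In both, the groups did not overlap and Ptip_KO replicate 2 was the highest library, and the limma adjusted p was 0.119 for Oasl2 and 0.097 for Mx2, with calls by DESeq2 (0.0124 and 0.025). Mx2 passed limma without WT replicate 2 (0.0448), and Oasl2 without Ptip_KO replicate 1 (0.0199) and without WT replicate 1 (0.0299). Mx1, whose promoter drives the Cre transgene, had 29.8 and 38.5 CPM in Ptip_KO, against 33.7 and 28.7 CPM in WT, an overlap of the groups, with a limma adjusted p of 0.691. In most laboratory strains both Mx genes carry inactivating mutations, and Mx2 is annotated as a polymorphic pseudogene. Their transcripts are 95.3% identical over 843 bases, and those of Isg15 and Ifitm2 also have near-identical copies elsewhere, so these counts are less certain. Overlap was also seen in Oasl1, a synthetase-like gene that limits IRF7 translation (3.297 and 5.395 CPM in Ptip_KO, against 4.04 and 4.39 CPM in WT), in Rtp4, a chaperone-like gene (2.29 and 3.197 CPM, against 3.66 and 2.84 CPM), and in Samd9l, a restriction factor gene (119 and 84.6 CPM, against 109 and 79.0 CPM). Bst2 had 36.5 and 34.9 CPM in Ptip_KO, against 43.8 and 41.7 CPM in WT, without overlap, with −0.25 as the log2 fold change (limma adjusted p = 0.168).

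The group of Parp9, Parp14, Dtx3l, Ifi35, Ifi44 and Xaf1 had no call by limma, edgeR or DESeq2, against 6.29%, 5.34% and 15.4% of all tested genes. Of these 6 genes, 3 had an unadjusted limma p under 0.05, a threshold that 23.8% of all tested genes passed. In 5 of the 6, both Ptip_KO libraries lay above both WT libraries, by log2 fold changes of 0.22 to 0.43, where 27.7% of all tested genes lay that way. Parp14, an ADP-ribosyltransferase, had 85.2 and 95.6 CPM in Ptip_KO, against 78.5 and 66.8 CPM in WT. Dtx3l, a ubiquitin ligase that pairs with PARP9, had 97.0 and 103 CPM in Ptip_KO, against 87.9 and 77.5 CPM in WT, and Parp9 had 56.1 and 58.9 CPM against 53.3 and 45.5 CPM. Parp9 and Dtx3l start 681 bases apart on opposite strands with overlapping exons, so some of their reads may be shared. Ifi44, at 115 and 162 reads in Ptip_KO and 74 and 101 reads in WT, gave a log2 fold change of 0.43 (limma adjusted p = 0.278). Xaf1, a gene of apoptosis control, was at 11.85 and 12.65 CPM in Ptip_KO, against 10.3 and 8.09 CPM in WT, while Ifi35, a leucine zipper gene, overlapped between groups with 36.3 and 39.8 CPM against 41.1 and 37.6 CPM. Over all 39 genes, 15 had both Ptip_KO libraries above the WT libraries, beside 27.7% of all tested genes. Both were below in 4, beside 27.3%. Together these were 48.7% of the list, beside 55.1% of all tested genes.

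The 39 genes also varied together between replicates of 1 genotype. In 32 of the 39 (82.1%), Ptip_KO replicate 2 was above Ptip_KO replicate 1, beside 41.6% of all tested genes, with a median log2 difference of 0.16 over the list and −0.03 over all genes. The size of that replicate difference (median absolute value 0.22) was close to that of the genotype difference (0.21), whereas over all genes the medians were 0.11 and 0.16. Ptip_KO replicate 2 was the highest of the 4 libraries in 24 of the 39 genes (61.5%), beside 20.7% of all tested genes, and WT replicate 2 was the lowest in 21 (53.8%), beside 29.2% of all tested genes. WT replicate 1 was above WT replicate 2 in 30 of the 39 (76.9%), beside 57.4% of all tested genes. Irf1, Oasl1, Oasl2, Mx2 and Rsad2 differed most between the Ptip_KO libraries, each by more than 0.5 on the log2 scale, all with replicate 2 higher. Ifnar1, Ifnar2 and Samd9l went the other way, by 0.22 to 0.48. The difference between the replicates was not tested, since each replicate is 1 library.

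**Figure D3:**
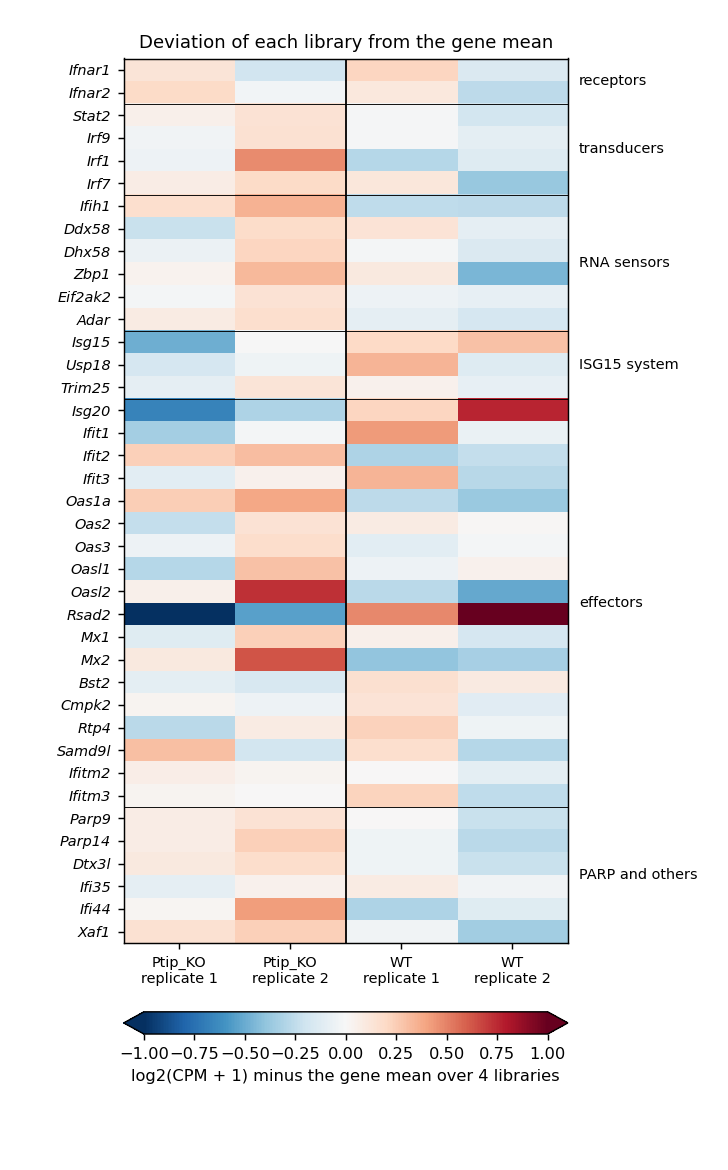
Log2(CPM + 1) of each interferon gene in each library minus the gene's mean over the 4 libraries, red for above and blue for below, with Ptip_KO left of the black line and WT right of it. The column of Ptip_KO replicate 2 is red in most rows, as that library was the highest in 24 of the 39 genes, and Rsad2 and Isg20 are blue in Ptip_KO and red in WT.

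Called and uncalled genes of 1 family sat side by side, and differences between such neighbours were not tested. On chromosome 19, the Ifit genes lie between 34550694 and 34650009. Ifit2 rose, while Ifit3 had 2.57 and 2.95 CPM in Ptip_KO, against 3.87 and 2.17 CPM in WT, and Ifit1 had 2.08 and 2.83 CPM in Ptip_KO, against 4.22 and 2.70 CPM in WT, both with overlapping groups. Ifit1bl2, an Ifit1-like gene that is not among the 39, starts 128 bases from Ifit1 on the opposite strand and fell. It had 0.762 and 0.4995 CPM in Ptip_KO, against 4.27 and 4.22 CPM in WT (log2 fold change −1.69, SE 0.17, limma adjusted p = 0.00908, and at most 0.0162 with any 1 library left out). Transcripts of Ifit3 and Ifit3b are 97.8% identical where they align, which leaves the split of reads between them uncertain. Their sum was 3.27 and 3.58 CPM in Ptip_KO, against 4.98 and 2.75 CPM in WT.

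On chromosome 5, the Oas genes lie between 120730333 and 120907521. Oas1a rose, and the smaller Oas1g, Oas1b and Oas1c each had both Ptip_KO libraries above both WT libraries and were not called by limma. Oas1g had 2.39 and 4.12 CPM in Ptip_KO, against 1.02 and 1.42 CPM in WT, with a limma adjusted p of 0.0924, and it passed by DESeq2 (0.0215) and without WT replicate 2 (0.0236). Oas1a and Oas1g are 97.6% identical where they align, and their sum was 25.8 and 30.02 CPM in Ptip_KO, against 17.2 and 16.4 CPM in WT, 1.66 times higher in Ptip_KO. Oas2 averaged 4.46 ± 1.006 CPM in Ptip_KO, against 4.77 ± 0.181 CPM in WT, and Oas3 averaged 30.2 ± 3.41 CPM, against 27.5 ± 1.18 CPM (SD, n = 2 each), both with overlap.

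On chromosome 12, Rsad2 (26442746 to 26456452) and Cmpk2 (26469204 to 26479837), a nucleotide kinase gene that interferon induces together with it, are transcribed away from each other, with starts 12752 bases apart. Cmpk2 had 82.6 and 78.1 CPM in Ptip_KO, against 89.5 and 74.9 CPM in WT, a log2 fold change of −0.03 (SE 0.11, limma adjusted p = 0.916). On chromosome 7, Ifitm2 and Ifitm3 had log2 fold changes of 0.09 and 0.03, while Ifitm1, which lies between them and is not among the 39, fell, with 5.98 and 4.45 CPM in Ptip_KO, against 11.8 and 17.8 CPM in WT (limma adjusted p = 0.0321, and 0.0506 without Ptip_KO replicate 2). Ifitm1 was named after its values were seen.

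**Figure D4:**
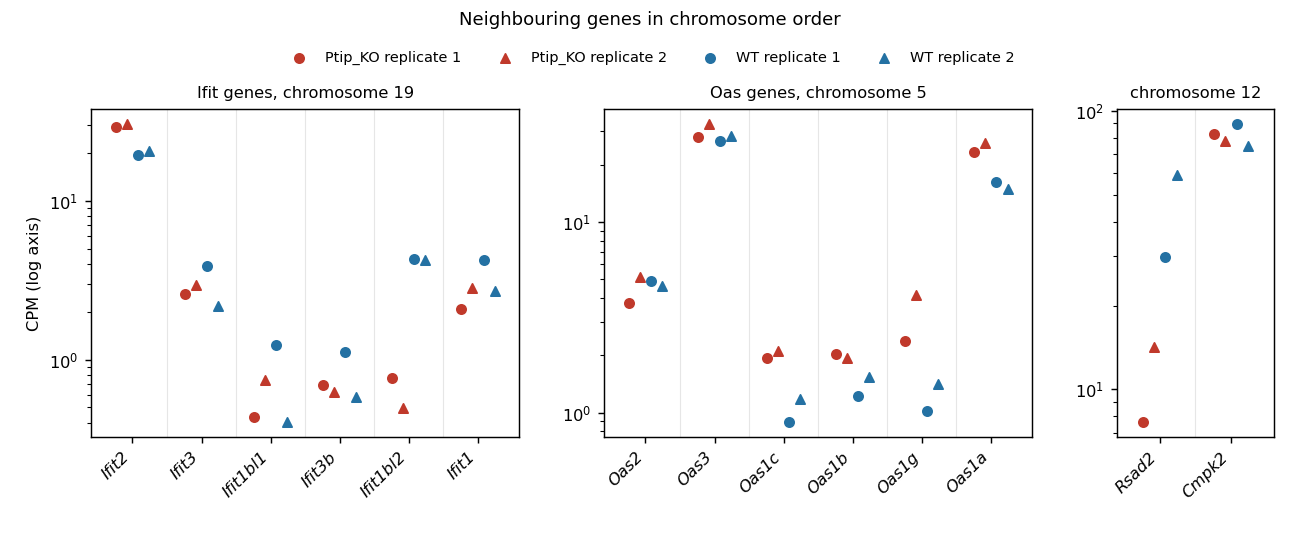
CPM on log axes of the Ifit genes of chromosome 19, the Oas genes of chromosome 5 and the pair Rsad2 and Cmpk2 of chromosome 12, in chromosome order, with red for Ptip_KO and blue for WT. Within each block, genes with separate red and blue points, such as Ifit2, Ifit1bl2, Oas1a and Rsad2, stand beside genes whose points overlap, such as Ifit3, Oas2 and Cmpk2.

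The sequences before the starts of these genes were read to see whether called and uncalled genes differ in the element through which interferon acts. RefSeq windows of 300 bases on GRCm38.p6, 250 before and 50 after each start, were at hand for 30 of the 39 genes. The ISRE core, which is GAAA, any 2 bases and GAAA again, searched on both strands with overlaps allowed, was in a window of 13 of the 30 genes (43.3%), against 3.99% of 27025 genes with a window. A longer form, the core followed by CT, was in 6 of the 30 (20.0%), against 0.303% of all. The longer form contains the core.

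Shown here are the stretches before the start of Oas1a, which rose, Rsad2, which fell, and Ifit1, Ifit3 and Isg15, which were not called, each on the gene's own strand with the ISRE core in capitals. Oas1a is chr5:120907526-120907645 (minus strand), Rsad2 is chr12:26456493-26456612 (minus), Ifit1 is chr19:34640739-34640858 (plus), Ifit3 is chr19:34583349-34583468 (plus) and Isg15 is chr4:156200819-156200938 (minus).
Oas1a: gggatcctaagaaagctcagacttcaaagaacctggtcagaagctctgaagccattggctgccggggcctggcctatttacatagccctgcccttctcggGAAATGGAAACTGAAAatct
Rsad2: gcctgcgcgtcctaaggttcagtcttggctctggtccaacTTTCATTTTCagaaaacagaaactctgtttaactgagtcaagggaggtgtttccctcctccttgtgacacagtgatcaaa
Ifit1: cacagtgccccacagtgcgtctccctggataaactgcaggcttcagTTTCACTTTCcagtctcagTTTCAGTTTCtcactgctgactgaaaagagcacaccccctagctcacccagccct
Ifit3: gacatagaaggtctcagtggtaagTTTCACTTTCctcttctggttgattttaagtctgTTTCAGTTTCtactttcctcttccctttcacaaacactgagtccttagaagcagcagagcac
Isg15: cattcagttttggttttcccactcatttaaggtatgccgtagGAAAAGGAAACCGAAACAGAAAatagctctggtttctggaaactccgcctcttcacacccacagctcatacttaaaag

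Oas1a held 2 overlapping cores close to its start, Rsad2 held 1 on the opposite strand, Isg15 held 3 that overlap, and Ifit1 and Ifit3 each held 2 on the opposite strand. Both cores before Ifit1 also lie before the start of Ifit1bl2, in its own window at −70 to −61 and −51 to −42, so the called and the uncalled gene of this pair share them. Ifih1 had its match after the start, and no window of Ifit2 held the core, which says only that these letters are not in this window. The median log2 fold change was 0.03 over the 13 genes with the core and 0.16 over the 17 without it, a difference that was not tested. The core was in the window of 3 of the 4 called genes, against 10 of the 26 uncalled genes that have a window.

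Among a list of further interferon-induced genes that are not among the 39, 49 were tested, of which 3 rose and 2 fell by limma, beside 2.43% and 3.86% of all tested genes. The genes that rose were Aim2, Trim14 and Lgals3bp. Aim2, a sensor of cytosolic DNA, had 69.7 and 74.8 CPM in Ptip_KO, against 47.5 and 50.8 CPM in WT (log2 fold change 0.55, SE 0.09, limma adjusted p = 0.0306). Trim14, an adaptor of antiviral signalling, had 37.2 and 35.3 CPM in Ptip_KO, against 24.2 and 21.7 CPM in WT (limma adjusted p = 0.028), and Lgals3bp, a secreted glycoprotein gene, had 59.0 and 70.3 CPM against 41.7 and 40.8 CPM (0.0349). The genes that fell were Ifit1bl2 and Ly6e. Ly6e, a surface protein gene that is abundant in these cells, had 1093 and 1075 CPM in Ptip_KO, against 1860 and 1571 CPM in WT (log2 fold change −0.66, SE 0.13, limma adjusted p = 0.0479), and its call was lost without Ptip_KO replicate 1 or 2 (0.222 and 0.245), with no filter (0.0878) and with a pseudocount of 5 (0.0501). Without Ptip_KO replicate 1 or 2 the calls of Aim2 (0.0931 and 0.161) and Trim14 (0.128 and 0.0826) were lost too, and that of Lgals3bp was lost without Ptip_KO replicate 2 (0.148). The number of genes of this list that limma called moved with each library left out, and so did the number called over all genes. The median log2 fold change of the 49 tested genes of the list was 0.02.

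Lists of blood cell type markers also differed between the groups. Some genes of the monocyte and neutrophil lists were abundant in every library, such as Lyz2 (4004 to 9364 CPM) and Mpo (5885 to 8481 CPM). Others were low, such as C1qa (at most 3.79 CPM). These 2 lists therefore need not mark cells other than the sorted ones. In the erythroid list, 10 of 11 genes had both Ptip_KO libraries below both WT libraries. The list summed to 804 and 1096 CPM in Ptip_KO, against 2072 and 4797 CPM in WT. This is the order of libraries seen in Rsad2 and Isg20. A T and NK cell list of 11 genes, 1 of them tested, summed to 35.5 and 50.60 CPM in Ptip_KO, against 50.62 and 71.5 CPM in WT. Most of that sum was the tested gene, Nkg7, whose groups overlapped. It had 33.5 and 47.3 CPM in Ptip_KO, against 47.1 and 66.4 CPM in WT. As in the erythroid list, both Ptip_KO libraries were below both WT libraries in many tested genes of other lists, beside 27.3% of all tested genes. These were 8 of 12 in the neutrophil and granule list, all 8 in the dendritic list and 10 of 13 in the monocyte and macrophage list. Kit, a receptor of early progenitors, had 14.4 and 16.1 CPM in Ptip_KO, against 49.5 and 73.1 CPM in WT, also in the order of Rsad2. In the plasmacytoid dendritic list, the cells known for making interferon, Siglech had 7.59 and 4.98 CPM in Ptip_KO, against 5.43 and 9.69 CPM in WT. There, 3 of 8 tested genes were below and 2 above the WT libraries. The list holds Bst2 and Irf7 of the 39. Over all its 12 genes it summed to 322 and 312 CPM in Ptip_KO, against 265 and 276 CPM in WT. Most of that difference lay in Tcf4, a transcription factor gene of these cells, named after its values were seen, with 104.7 and 103.9 CPM in Ptip_KO, against 55.5 and 64.4 CPM in WT (limma adjusted p = 0.0164). Of these lists, the plasmacytoid one (Klk1) and the T and NK one (Cd8a and Cd3e) held genes at 0 in a library. The 39 interferon genes together summed to 1991 and 2066 CPM in Ptip_KO, against 1996 and 1749 CPM in WT. The part of these cell types in the falls of Rsad2 and Isg20 was not tested.

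**Figure D5:**
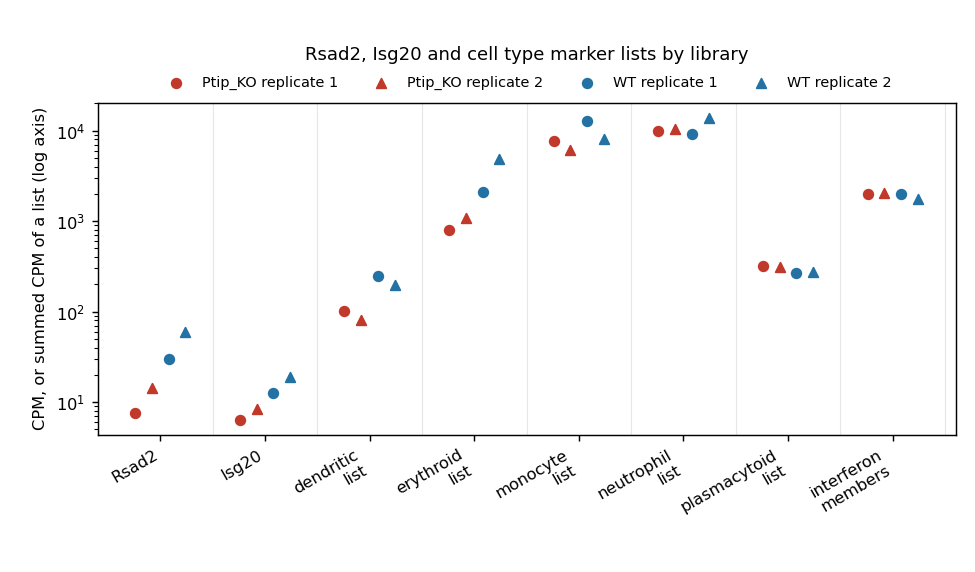
CPM of Rsad2 and Isg20, and summed CPM of the marker lists and of the 39 interferon genes, in each library on a log axis, red for Ptip_KO and blue for WT. The order of the libraries in Rsad2 and Isg20 is the one seen for the erythroid list (804, 1096, 2072 and 4797 CPM), while the sum of the interferon genes is nearly level.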

How the data were processed

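Libraries were stranded poly(A) libraries (TruSeq), per the labels' protocols. TopHat2 2.0.10, HTSeq 0.6.0, edgeR 3.8.6 and build mm10 are named by the submitters' processing notes without their roles, and whether counting used strand is not given in the sources used here. The authors deposited a normalized signal per gene, CPM on the effective library size, per the file's name. Every value was a whole multiple of its library's smallest value (100% of 18276 values per library within 0.01 read), so whole reads were recovered. Columns were matched to samples by description, which gives the WT column numbered otherwise to WT replicate 2. Names and positions are from GENCODE M21 (GRCm38, the assembly of mm10; 92.2% of identifiers had the same version).

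Genes reaching 1 CPM in 2 or more libraries were fitted on log2(CPM + 1) with genotype as the only term and a variance prior that follows mean level (limma 3.58.1 in R 4.3.3, 2-sided), which understates changes of low genes. Alternatives were edgeR 4.0.16 and DESeq2 1.42.0 on recovered reads, pseudocounts of 0.25 and 5, other filters and scalings, a robust prior, a replicate block and each library left out. Near-identical copies were sought with BLAST 2.17.0 (95% identity over 50% of the shorter transcript and 200 nucleotides). Scripts were tested on simulated data. With 2 against 2 libraries, limma borrows its estimate of spread from all tested genes.

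The members and lists were chosen with earlier results of these data known. Named genes were the called members, the receptors and transducers, members called by edgeR or DESeq2, the 5 uncalled members with the largest change, called pathway genes, and Jak1 and Tyk2. Some results that this rule would name are not reported here. Other members are named by value to complete each role. Ifngr2, Ifitm1, the Oas1 relatives, Kit, Nkg7, Ddx3y, Lyz2, Mpo and C1qa were named after their values were seen.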

Additional observations from a re-analysis of the deposited data

How the results depend on the processing

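Over all genes limma called 777, 300 higher and 477 lower. The counts were 1906, 780 and 1126 by DESeq2 and 1721, 691 and 1030 with the replicate block, and with 1 library left out they ran from 452 to 1620, from 113 to 700 and from 339 to 920. Interferon genes called higher (3) numbered 5 by DESeq2 and 1 when scaled to a common sum (11 unadjusted, against 15.3% of all genes), and 0 to 7 with 1 library left out. Those called lower (1) numbered 2 by DESeq2 and with the replicate block, and 0 to 2 with 1 library left out. None was called lower with a pseudocount of 5 (4 unadjusted), by edgeR (3), with a robust prior (3) or when scaled to a common sum (3), where 10.98% to 13.3% of all genes were lower unadjusted. Other signalling genes called (1) ranged from 0 to 4 and other induced genes (5) from 1 to 10 with 1 library left out, and other induced genes had 11 calls by DESeq2 and 10 with the replicate block. The median log2 fold change of the interferon genes was 0.12. Over all settings it ran from 0.04 (without WT replicate 2) to 0.23 (without WT replicate 1).

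Replicate numbers are shared between the groups, but no label says that they pair samples. Deviations of same-numbered libraries correlated at 0.332 over 12357 genes. Signs of genes near 0 turned with 1 library left out: Ifnar1 ranged from −0.25 to 0.11 (0.09 without Ptip_KO replicate 2), Ifnar2 from −0.021 to 0.34 and Jak1 from −0.011 to 0.11 (−0.0018 without WT replicate 2). The cause was not tested. With 2 libraries per group, differences the size of the spread between replicates could not be detected, while counting error is small for abundant genes.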
